A study of Homo sapiens with 6 samples.

Results

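Cadherins, protocadherins and calsyntenins are calcium-binding membrane proteins built from extracellular cadherin repeats. Their genes were taken from the expression tables by symbol, as every gene named CDH with a number, every gene whose name begins with PCDH, and CLSTN1 to CLSTN3. This gave 99 of 25369 genes: 18 classical cadherins, 5 other cadherins, 57 clustered protocadherins, 13 non-clustered protocadherins, 3 calsyntenins and 3 antisense transcripts of PCDH9. The question asked of them was which of these adhesion genes differed in RNA level when PBRM1 was expressed again in a ccRCC cell line without it, and whether classical cadherins and clustered protocadherins differed alike.

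RNA was sequenced from Caki2, a ccRCC cell line in which the study found no PBRM1 protein. Caki2+Vector cells carried an empty lentiviral vector with a doxycycline-inducible promoter, and Caki2+PBRM1 cells carried that vector with PBRM1, a subunit of the PBAF chromatin remodelling complex. Both were stable lines of the same Caki2 cells, both were kept with doxycycline at 2 µg/ml, and each was sequenced as 3 biological replicates, A, B and C. Each group was 1 transduced line, so that an effect of PBRM1 and a difference between the lines cannot be told apart, and whether a line was a clone is not given in the sources used here. PBRM1 itself had 195.0, 182.3 and 182.2 normalized counts in Caki2+Vector A, B and C and 2431.7, 2520.7 and 2682.4 in Caki2+PBRM1 A, B and C, so that every library matched its label.

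Classical cadherins bind the same cadherin on a neighbouring cell, and their cytoplasmic tails hold beta-catenin, alpha-catenin and, through them, actin. Kidney tubule cells are known for an unusual set of cadherins, in which N-cadherin (CDH2), K-cadherin (CDH6) and Ksp-cadherin (CDH16) are present beside or in place of E-cadherin (CDH1). Clustered protocadherins are encoded in 3 gene arrays on chromosome 5, alpha, beta and gamma, in which each variable exon has its own promoter and a cell uses a few of them in a combination that marks its surface. Calsyntenins carry extracellular cadherin repeats and a cytoplasmic tail that docks kinesin light chain, and are known best from synapses.

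The 6 libraries held 7312955 to 10835355 reads on genes. Values are given as normalized counts: reads on a gene over the size factor of its library. Within the groups Caki2+Vector A stood apart, with a chi-square per degree of freedom of 3.09 against B and 2.84 against C, where B and C gave 1.34 and the Caki2+PBRM1 pairs 1.19 to 1.22, and calls that depend on it are given with and without it. Markers of the kidney epithelium were present at uneven levels. PAX8 stood at 1887.7 to 2190.0 normalized counts and KRT8 at 7228.0 to 8811.9. PAX2, at 20.4 to 34.0, and EPCAM, at 10.4 to 19.6, were low. The 8 markers summed to 16437.3 to 17482.0 and then 14848.0 to 15505.7. Of 4 clear cell carcinoma markers, 3 were tested (NNMT, NDUFA4L2 and VIM) and all were called higher. CA9, below the filter, stood at 2.8 or less without PBRM1 and at 6.7 to 15.2 with it. The 5 endothelial markers, TEK at 0 among them, summed to between 2.8 and 5.7 (Caki2+Vector) or 5.0 and 8.0 (Caki2+PBRM1). The 6 fibroblast and pericyte markers summed to 104.3 to 111.5 and 101.6 to 129.8. The 5 leukocyte markers summed to 1999.4 to 2143.7 and 1900.2 to 1937.7, nearly all of it CD68, with CD3E and MS4A1 at 0. The 4 melanocyte markers summed to 942.9 to 1001.6 and 1057.5 to 1104.8, with MITF at 879.6 to 1049.6, PMEL at 43.6 to 60.5 and TYR at 0. The 5 neuron markers summed to 3582.6 to 3962.8 and 3365.4 to 3492.2. Of these, MAP2 stood at 2754.5 to 3476.2 and was called lower, and SYT1 at 267.4 to 427.9 and was called higher. SNAP25 stood at 150.2 to 190.8, RBFOX3 at 5.7 to 14.2 and STMN2 at 0. The part of these lists in the results was not tested.

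Of the 99 genes, 25 reached 10 normalized counts in at least 3 samples and were tested, 22 of them with 10 or more in all 6 samples, and 74 were below that level, 65 of them with a mean under 5. Among the 25 tested, 12 were higher and 1 was lower in Caki2+PBRM1 (limma, adjusted p under 0.05 over the 13303 genes tested), against 16.2% of all tested genes called higher and 13% called lower. The share called higher was 48% and the share called lower 4%. Without Caki2+PBRM1 B, and with DESeq2, 7 were called higher, where 1662 and 1496 of all tested genes were, in place of 2152. The 1 called lower by limma with all 6 samples was CDH23, and DESeq2 called 0 lower. The groups did not overlap for 13 members in the higher direction and 3 in the lower direction, where 22.1% and 19.6% of all tested genes did not. The median log2 fold change was 0.25 over the 25 members and 0.00 over all tested genes. For each member without overlap the exact two-sided permutation test gave p = 0.1, which is the smallest p it can give with 3 samples against 3.

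**Figure D1:**
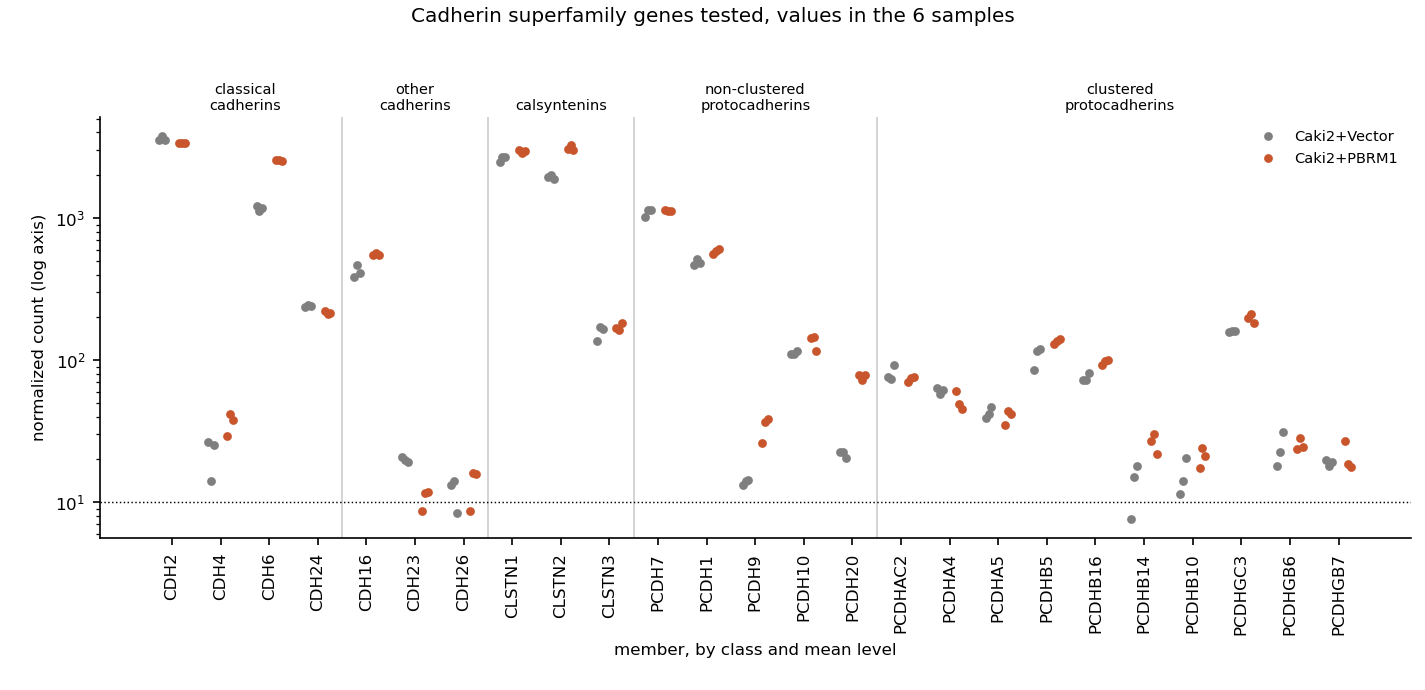
Normalized counts (log axis) of the 25 tested genes in each of the 6 samples, grouped by class and, within a class, by family and mean level, with Caki2+Vector in grey and Caki2+PBRM1 in orange. The dotted line marks 10 normalized counts. PCDH20, PCDH9 and CDH6 show the widest upward gaps from grey to orange points, while the points of CDH2 and PCDH7 lie at nearly the same height.

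Classical cadherins differed 1 by 1. CDH6 RNA rose more than 2-fold, CDH4 rose from a low level, and CDH2 and CDH24 were slightly lower without passing the test. Of 18 classical cadherins, 4 were tested and 14 were below the filter. Of the 4, 2 were called higher (50%) and 0 lower, beside 16.2% and 13% of all tested genes. At an unadjusted p under 0.05 limma gave 1 lower (CDH2), and edgeR and DESeq2 on whole reads gave 0 after adjustment. Without Caki2+Vector B, Caki2+PBRM1 B or Caki2+PBRM1 C, 1 of the 2 higher calls remained (CDH6), and without Caki2+Vector A CDH2 was called lower.

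CDH6 encodes K-cadherin, a type II cadherin of the developing kidney tubule, at chr5:31193793-31329253 on GRCh37 (hg19), + strand. It had 1208.9, 1113.9 and 1167.4 normalized counts in Caki2+Vector A, B and C, and 2552.0, 2551.8 and 2505.3 in Caki2+PBRM1 A, B and C. All 3 Caki2+PBRM1 samples lay far above all 3 Caki2+Vector samples, and within each group the samples were close together. The log2 fold change was 1.12 ± 0.04 (SE, n = 3 per group, limma adjusted p = 1.59e-18), or 2.18-fold, and ranged from 1.07 to 1.15 over the 16 other fits. In bulk RNA, more cells with a transcript and more of the transcript per cell cannot be told apart.

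CDH2 encodes N-cadherin, the type I cadherin of proximal tubule cells and of many mesenchymal cells (chr18:25512843-25757910, - strand). It was the most abundant classical cadherin per length in every sample. Its normalized counts were 3516.9, 3752.6 and 3551.3 in Caki2+Vector and 3392.5, 3400.7 and 3400.0 in Caki2+PBRM1. The Caki2+PBRM1 samples all lay below the Caki2+Vector samples, yet the log2 fold change of -0.09 ± 0.04 did not pass the test over all genes (adjusted p = 0.0853, 95% interval -0.16 to -0.01). It did pass without Caki2+Vector A (log2 fold change -0.10, adjusted p = 0.00824) and when total counts set the scale (-0.14, adjusted p = 0.00413).

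CDH4 encodes R-cadherin, a type I cadherin known from retina and kidney (chr20:59827317-60515673, + strand). It was low, at 26.5, 14.2 and 25.2 normalized counts in Caki2+Vector and 29.2, 41.8 and 37.8 in Caki2+PBRM1. The groups did not overlap, but Caki2+PBRM1 A was close to Caki2+Vector A and C. The log2 fold change was 0.73 ± 0.24 (adjusted p = 0.0197). The call was lost without Caki2+Vector B (0.46, adjusted p = 0.152), without Caki2+PBRM1 B (0.63, adjusted p = 0.11) or C (0.70, adjusted p = 0.0791), and with DESeq2 (adjusted p = 0.0966).

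CDH24, a type II cadherin whose tail also binds catenins (chr14:23516271-23526747, - strand), had 235.7, 243.8 and 239.7 normalized counts in Caki2+Vector and 223.1, 211.5 and 215.7 in Caki2+PBRM1. The groups did not overlap, and the log2 fold change of -0.14 ± 0.08 did not pass the test (adjusted p = 0.19, 95% interval -0.31 to 0.02). The other type I and type II genes were below the filter. CDH1, the E-cadherin of most epithelia, had 1.9, 1.9 and 1.2 normalized counts in Caki2+Vector and 1.1, 1.8 and 0.0 in Caki2+PBRM1. CDH3 (P-cadherin) had 1 read in all 6 libraries and CDH11 (OB-cadherin, of mesenchyme) had 2, while CDH5 (VE-cadherin, of endothelium) had 0 in every sample. Where the summed reads of a group were 0, up to 3 reads over that group are allowed by counting error, of 25831437 reads on genes in Caki2+Vector and 29471599 in Caki2+PBRM1.

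On the scale of normalized counts per kb of exon, CDH2 held 70.8% to 72.8% of the summed level of all 18 classical cadherins in the Caki2+Vector libraries. In the Caki2+PBRM1 libraries it held 59.2% to 59.6%. CDH6 held 14.9% to 16.8% and 30.3% to 30.8%. Per kb, the Caki2+Vector libraries had a CDH6 to CDH2 ratio of 0.22 ± 0.017 (SD, n = 3). With PBRM1 it was 0.51 ± 0.006, and since both genes are read in 1 library, no scaling between libraries touches this ratio. CDH24 held 10.8% to 11.0% and 8.5% to 8.9%, and CDH4 0.8% or less in every sample. These levels count every annotated exon of a gene as its length, whichever transcript the cells make.

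**Figure D2:**
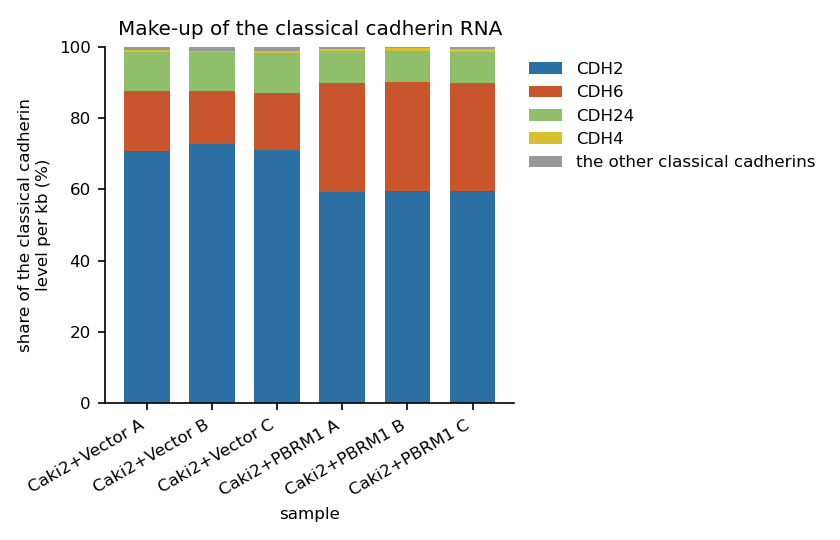
Share of the classical cadherin level, in normalized counts per kb of exon, held by each gene in each of the 6 samples (stacked bars, y axis from 0 to 100%). CDH6 takes 14.9% to 16.8% of each Caki2+Vector bar and 30.3% to 30.8% of each Caki2+PBRM1 bar, and CDH2 the largest share of all 6 bars.

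Of the 5 other cadherins, CDH16 rose and CDH23 fell. CDH16 encodes Ksp-cadherin, a kidney-specific cadherin with a short tail that lacks the catenin site (chr16:66942025-66952820, - strand). It had 387.2, 465.8 and 411.1 normalized counts in Caki2+Vector and 553.5, 564.4 and 549.7 in Caki2+PBRM1. The groups were apart, and the Caki2+PBRM1 samples lay closer together than the Caki2+Vector samples. The log2 fold change was 0.40 ± 0.07 (adjusted p = 2.56e-05), and it passed in all 16 other fits.

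CDH23, a long cadherin of the hair cell tip link in the inner ear, was named after its values were seen because it was the only member called lower. It had 20.8, 19.8 and 19.2 normalized counts in Caki2+Vector and 8.7, 11.6 and 11.8 in Caki2+PBRM1. All 3 samples of the second group were lower, at a depth of few reads, with a log2 fold change of -0.86 ± 0.28 (adjusted p = 0.0203). The call was lost without Caki2+Vector A (adjusted p = 0.0502) or B (0.0529), without Caki2+PBRM1 A (0.0771) and with DESeq2 (0.135), and 18.9% of its exon bases are shared with C10orf105. CDH13 (T-cadherin, held by a lipid anchor) and CDH17 (liver-intestine cadherin) were below the filter, at 0.0 to 3.6 and 0.8 to 6.0 normalized counts.

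The calsyntenins were all expressed. CLSTN2 rose 1.60-fold, CLSTN1 rose slightly, and CLSTN3 did not pass the test. CLSTN2 (chr3:139654027-140296239, + strand) had 1934.1, 2023.7 and 1880.5 normalized counts in Caki2+Vector and 3083.8, 3258.5 and 3010.5 in Caki2+PBRM1. Every Caki2+PBRM1 sample lay far above every Caki2+Vector sample. Its log2 fold change was 0.68 ± 0.04 (adjusted p = 1.26e-13), and CLSTN2 stands on the study's own list of adhesion genes, which was chosen on these samples, so that its direction is not independent evidence of that list.

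CLSTN1, the most abundant calsyntenin per length (chr1:9788984-9884042, - strand), had 2498.3, 2680.3 and 2705.1 normalized counts in Caki2+Vector and 3031.8, 2887.8 and 2940.9 in Caki2+PBRM1. The groups did not overlap, with a log2 fold change of 0.17 ± 0.04 (adjusted p = 0.00182) that passed in all 16 other fits. CLSTN3, known as a partner of neurexin at synapses, had 135.4, 171.9 and 166.6 normalized counts in Caki2+Vector and 167.9, 163.5 and 182.1 in Caki2+PBRM1. These overlapped, and the log2 fold change was 0.12 ± 0.10 (adjusted p = 0.405, 95% interval -0.09 to 0.33). Without Caki2+Vector A the log2 fold change of CLSTN3 was 0.02 (adjusted p = 0.933). Per kb of exon the order of levels was CLSTN1, CLSTN2, CLSTN3 in both groups, at 520.17, 133.33 and 23.47 normalized counts per kb in Caki2+Vector and 584.62, 213.59 and 25.44 in Caki2+PBRM1.

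The 13 non-clustered protocadherins have genes scattered over the genome and proteins known mostly from brain. By limma 5 were tested, 3 were called higher (60%) and 0 lower, beside 16.2% and 13% of all tested genes. Also at an unadjusted p under 0.05, with edgeR or with DESeq2, 0 were lower. All 5 log2 fold changes were positive. PCDH20 (chr13:61983818-61989982, - strand) had 22.7, 22.7 and 20.4 normalized counts in Caki2+Vector and 79.1, 72.9 and 78.1 in Caki2+PBRM1. Every Caki2+PBRM1 sample exceeded every Caki2+Vector sample by more than 3-fold, and the log2 fold change of 1.76 ± 0.17 (adjusted p = 3.55e-09) was the largest of the 25 members. PCDH20 is on the same list of the study as CLSTN2.

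PCDH9, a delta-1 protocadherin, had 13.3, 14.2 and 14.4 normalized counts in Caki2+Vector and 26.0, 36.4 and 38.6 in Caki2+PBRM1. The groups were apart although both were low, and the log2 fold change was 1.20 ± 0.24 (adjusted p = 2.9e-04). The 3 antisense transcripts of PCDH9 had 0 reads in every sample. PCDH1, a delta-1 protocadherin of epithelia such as that of the airway (chr5:141232655-141258811, - strand), had 469.6, 518.7 and 480.6 normalized counts in Caki2+Vector and 554.6, 584.0 and 607.6 in Caki2+PBRM1. This was a modest step between groups that did not overlap, at a log2 fold change of 0.25 ± 0.06 (adjusted p = 0.00257).

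PCDH7, a delta-1 protocadherin, had 1013.9, 1134.7 and 1131.4 normalized counts in Caki2+Vector and 1134.1, 1113.7 and 1121.3 in Caki2+PBRM1. The groups overlapped, and the log2 fold change was 0.04 ± 0.05 (adjusted p = 0.591, 95% interval -0.06 to 0.14), with its sign turned to -0.01 without Caki2+Vector A and when total counts set the scale. PCDH10, a delta-2 protocadherin named after its values were seen, had 109.8, 110.5 and 115.1 normalized counts and then 141.9, 144.9 and 116.7. Its Caki2+PBRM1 C sample lay just above the Caki2+Vector samples, with a log2 fold change of 0.26 ± 0.11 (adjusted p = 0.0844) that passed without Caki2+PBRM1 C (0.36, adjusted p = 0.0384). PCDH18 had 1 read in all 6 libraries.

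**Figure D3:**
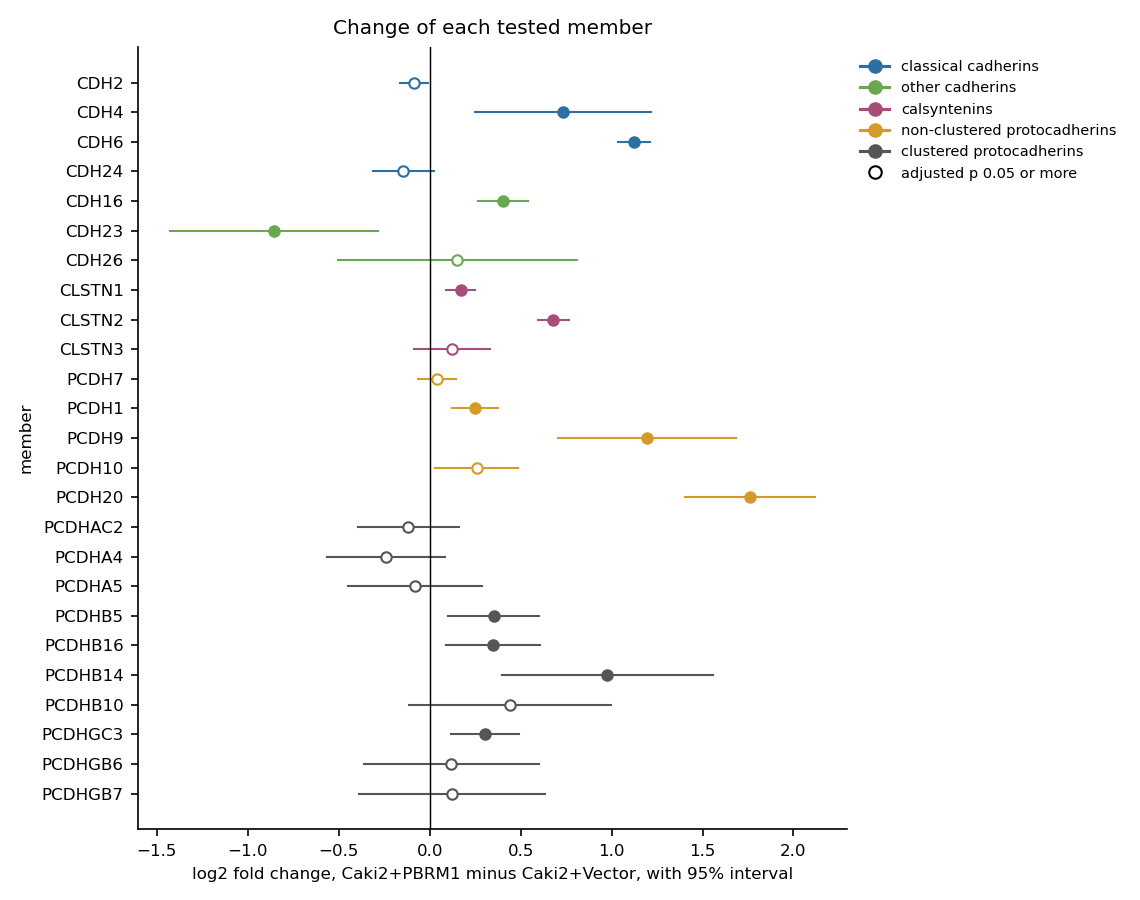
Log2 fold change of each tested gene (x axis, Caki2+PBRM1 minus Caki2+Vector, on the log2(normalized count + 1) scale) with its 95% interval from limma, coloured by class. Filled points passed the test and open points did not. CDH23 is the filled point left of 0, the 3 alpha protocadherins are open points left of 0, and PCDH20 at 1.76 lies farthest to the right.

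Of 57 clustered protocadherins, 52 had at least 1 read and 10 were tested, 3 of 15 alpha, 4 of 19 beta and 3 of 23 gamma genes. Of these 10, 4 were called higher (40%), 3 beta genes and 1 gamma gene, beside 16.2% of all tested genes. By limma with or without adjustment and by edgeR and DESeq2, 0 were called lower, beside 13% of all tested genes by limma. The log2 fold changes were -0.24 to -0.08 for the 3 alpha genes, none of which passed and all of which overlapped between groups, and 0.35 to 0.98 for the 4 beta genes, and no difference between arrays was tested. Set beside the classical cadherins, 4 of 10 against 2 of 4 tested genes were called higher and 0 against 0 lower, with a median log2 fold change of 0.21 against 0.32 and a largest one of 0.98 (PCDHB14) against 1.12 (CDH6). With no filter on low values the order of the medians turned, to 0.13 for clustered against -0.14 for classical genes, and without Caki2+Vector B they were 0.20 and 0.20. With no test between classes, and 4 genes in 1 of them, these are descriptions. Of the 4 clustered calls, 0 were left with DESeq2 or without Caki2+PBRM1 B, 1 without Caki2+Vector A, and 2 without Caki2+PBRM1 A or C. Of the 2 classical calls, CDH6 passed in all 16 other fits and CDH4 in 12 of them, where PCDHGC3 passed in 14, PCDHB14 in 13, PCDHB5 in 10 and PCDHB16 in 8.

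The clustered genes are short of reads, but many of their promoters share a known element. Its core is the letters CGCT, a short way upstream of the start of the variable exon, where the insulator protein CTCF is known to bind nearby. A match to these letters alone does not show the whole element. Promoters from RefSeq (GRCh38.p14, 250 bases before to 50 bases after the start) were found for 75 of the 99 members and 47 of the 57 clustered genes. CGCT on the sense strand, starting 100 to 25 bases upstream of the start, was in 91.5% of these 47 genes, in 60% of the 10 classical cadherins found and in 26.3% of the 27305 genes of the promoter table. On either strand (CGCT or AGCG, which overlap in AGCGCT) the shares were 91.5%, 70% and 41.9%. The match was in 9 of 10 tested clustered genes and in 34 of 37 below the filter. PCDHB5, the highest beta gene per length, has none in this stretch, which says only that these letters are not there.

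To let the match be compared between genes in use and genes that gave no read, 40 bases around it are given for 6 tested genes and 3 genes with 0 reads. All are 5′ to 3′ on the + strand of GRCh38.p14, in lower case with the CGCT in capitals. The tested PCDHAC2, PCDHGB6 and PCDHGB7, and PCDHB1 with 0 reads, also have the match and are not printed. Only the letters CGCT were searched, so the printed genes do not show how alike the flanks are in all matches. PCDHGC3 has 2 sense matches in the stretch searched, of which the capitals mark the nearer to the start and the other stays in lower case.
PCDHA4: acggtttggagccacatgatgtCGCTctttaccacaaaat
PCDHA5: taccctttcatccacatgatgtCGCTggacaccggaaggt
PCDHB10: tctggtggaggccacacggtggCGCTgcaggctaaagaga
PCDHB14: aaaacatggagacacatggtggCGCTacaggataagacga
PCDHB16: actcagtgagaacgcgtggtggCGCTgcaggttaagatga
PCDHGC3: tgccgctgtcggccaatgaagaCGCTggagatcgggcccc
PCDHB4: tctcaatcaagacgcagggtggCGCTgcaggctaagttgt
PCDHGA3: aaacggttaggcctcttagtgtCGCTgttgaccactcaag
PCDHGA8: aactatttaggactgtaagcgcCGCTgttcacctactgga
The alpha windows are chr5:140806973-140807012 (PCDHA4) and chr5:140821536-140821575 (PCDHA5), with the CGCT starting 73 and 55 bases upstream of the start. The beta windows are chr5:141192293-141192332 (PCDHB10), chr5:141223257-141223296 (PCDHB14), chr5:141182304-141182343 (PCDHB16) and chr5:141121717-141121756 (PCDHB4), with the CGCT 38, 64, 61 and 79 bases upstream. The gamma windows are chr5:141475893-141475932 (PCDHGC3), chr5:141343761-141343800 (PCDHGA3) and chr5:141392562-141392601 (PCDHGA8), with the CGCT 51, 46 and 49 bases upstream. PCDHA4, PCDHA5 and the 4 beta genes were set beside each other because they include members that moved up (PCDHB14, PCDHB16), members that did not pass the test (PCDHA4, PCDHA5, PCDHB10) and a gene without a read (PCDHB4).

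In the beta array 3 of 4 tested genes were called higher (75%) and 0 lower, beside 16.2% and 13% of all tested genes. All 3 calls were lost with DESeq2 and without Caki2+PBRM1 B. PCDHB5 (chr5:140514788-140518197, + strand, on GRCh37 as for all genes here) had 85.2, 115.3 and 119.9 normalized counts in Caki2+Vector and 128.9, 136.0 and 140.2 in Caki2+PBRM1. The groups did not overlap, with Caki2+Vector A well under its own group, and the log2 fold change was 0.35 ± 0.12 (adjusted p = 0.0302). Without Caki2+Vector A it was 0.20 (adjusted p = 0.201), without Caki2+PBRM1 A, B or C the adjusted p was 0.0573, 0.0864 or 0.111, and under total count scaling 0.0587.

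PCDHB16 (chr5:140561962-140565801, + strand) had 72.9, 72.7 and 81.5 normalized counts in Caki2+Vector and 92.1, 97.8 and 99.9 in Caki2+PBRM1. Every Caki2+PBRM1 sample exceeded every Caki2+Vector sample, with a log2 fold change of 0.35 ± 0.13 (adjusted p = 0.038). It passed with all 6 samples and without Caki2+Vector C, and not without any of the other samples. The adjusted p was 0.0573 to 0.129 without Caki2+Vector A or B or any Caki2+PBRM1 sample. Its call was lost too under total count scaling (adjusted p = 0.075), with DESeq2 and with no filter on low values.

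PCDHB14 had 7.6, 15.1 and 18.0 normalized counts in Caki2+Vector and 27.1, 30.2 and 21.8 in Caki2+PBRM1, so that Caki2+Vector A lay under the filter's 10. The groups did not overlap, and the log2 fold change was 0.98 ± 0.28 (adjusted p = 0.00973). The call was lost without Caki2+Vector A (0.63, adjusted p = 0.0647), without Caki2+PBRM1 B (0.88, adjusted p = 0.0628) and with DESeq2. PCDHB10, the remaining tested beta gene, overlapped between groups and had a log2 fold change of 0.44 ± 0.27 (adjusted p = 0.234).

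In the gamma array PCDHGC3, a C-type isoform near the far end of the array (chr5:140855514-140892544, + strand), had 158.1, 160.6 and 159.4 normalized counts in Caki2+Vector and 199.3, 209.8 and 183.0 in Caki2+PBRM1. All 3 Caki2+PBRM1 samples were higher, with a log2 fold change of 0.30 ± 0.09 (adjusted p = 0.0126). The call was lost without Caki2+PBRM1 B (0.26, adjusted p = 0.0854) and with DESeq2. PCDHGB6, at 18.0 to 31.2 normalized counts, and PCDHGB7, at 17.6 to 27.1, overlapped between groups. PCDHGB6 differed by 0.12 ± 0.23 on the log2 scale (adjusted p = 0.75) and PCDHGB7 by 0.12 ± 0.25 (adjusted p = 0.759). In the alpha array the highest gene per length, the C-type PCDHAC2, had 75.7, 73.7 and 92.3 normalized counts in Caki2+Vector and 70.4, 74.7 and 76.4 in Caki2+PBRM1. These overlapped, with a log2 fold change of -0.12 ± 0.14 (adjusted p = 0.56, 95% interval -0.40 to 0.16).

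Summed over each array, the 15 alpha genes had 222.9 ± 12.6 normalized counts without PBRM1 and 197.8 ± 5.9 with it (mean ± SD, n = 3 per group). The 19 beta genes had 239.9 ± 35.0 and 315.1 ± 14.1, and the 23 gamma genes 225.7 ± 13.3 and 274.0 ± 16.5. For each array the groups did not overlap, lower for alpha and higher for beta and gamma. Of all single genes tested, 19.6% did not overlap in the lower and 22.1% in the higher direction. The same held for the arrays under total count scaling. There the ratio of the Caki2+PBRM1 to the Caki2+Vector mean was 0.85, 1.27 and 1.17 in place of 0.89, 1.31 and 1.21. Summed over all clustered genes, the groups overlapped under total count scaling (ratio 1.1) but not otherwise (1.14). No test was run on the sums. Each array sum came mostly from few genes. PCDHB5 held 41.5% to 47.5% of the beta counts, PCDHGC3 67.2% to 74.9% of the gamma counts and PCDHAC2 34.4% to 39.6% of the alpha counts, over the 6 samples. Of the exon bases of alpha and gamma genes with coordinates, PCDHGB8P aside, 19.2% to 64.4% are shared with other genes of the array, the constant exons among them. How reads on shared exons were assigned is not given in the sources used here, so that these counts are uncertain as levels of single genes, while no beta gene with coordinates shares exon bases.

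**Figure D4:**
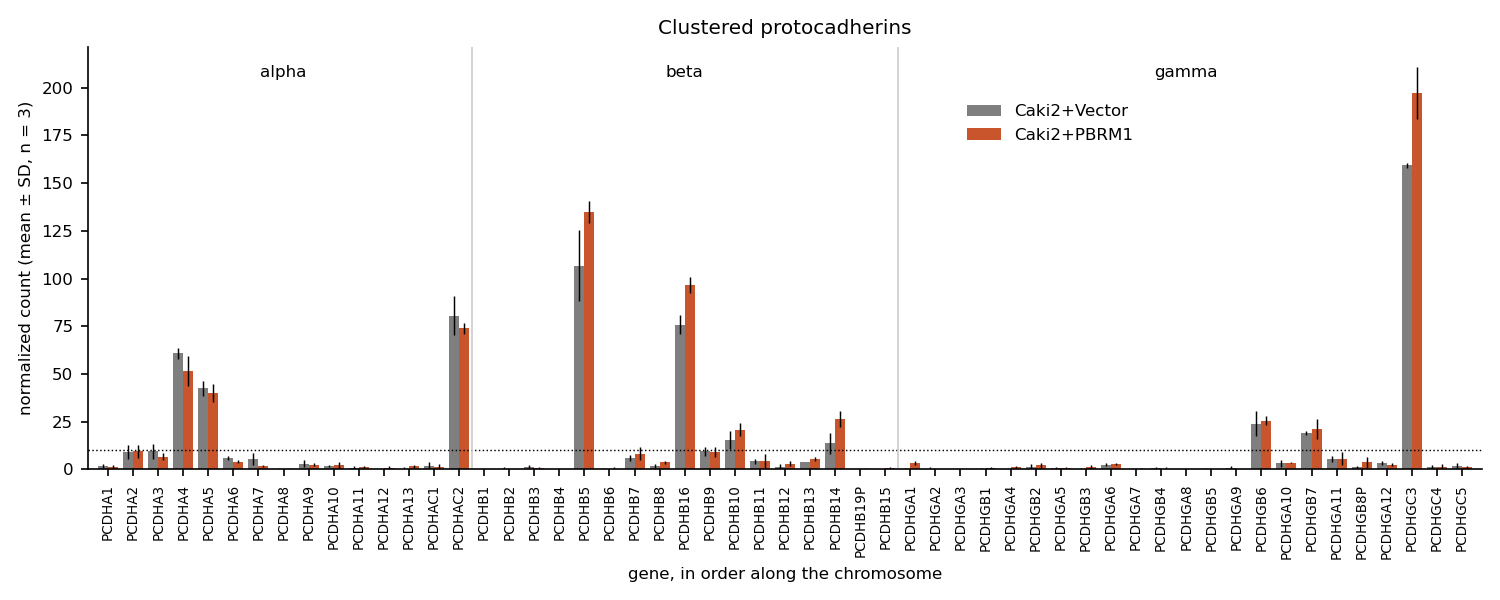
Normalized counts of the clustered protocadherins in their order along chromosome 5 (mean of 3 samples, error bars SD), Caki2+Vector in grey and Caki2+PBRM1 in orange, with a dotted line at 10. PCDHB17 and PCDHB18, for which no coordinates were found, are not drawn. Most genes lie near 0, and PCDHGC3, PCDHB5, PCDHB16 and PCDHAC2 stand out, with PCDHGC3 at 159.4 ± 1.3 and 197.3 ± 13.5.

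Genes that work with these proteins were followed in 7 lists, 72 of whose 85 genes in the files were tested. Of the 72, 22 were higher (30.6%) and 10 lower (13.9%), beside 16.2% and 13% of all tested genes. Under total count scaling 18 were lower, where 2777 of all 13303 tested genes were lower in place of 1734. Without Caki2+PBRM1 A 6 were lower, beside 1278 of all tested genes.

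Of 12 tested catenins and other partners of the cadherin tail, 1 rose (8.33%) and 2 fell (16.7%), beside 16.2% and 13% of all tested genes, with a median log2 fold change of 0.06. CTNNB1 (beta-catenin) had 3103.2, 3159.3 and 3203.7 normalized counts in Caki2+Vector and 2898.6, 2780.3 and 2852.8 in Caki2+PBRM1, with no overlap and a log2 fold change of -0.15 ± 0.04 (adjusted p = 0.00287). VCL (vinculin, an actin-binding protein and no catenin) was the gene that rose, by a log2 fold change of 0.20 ± 0.04 (adjusted p = 1.02e-04). CTNNAL1, a relative of alpha-catenin, fell by 0.17 on the log2 scale with groups that overlapped, and its call was lost without any sample but Caki2+Vector B (adjusted p 0.0476 with all samples, 0.217 without Caki2+Vector A). CTNNA1 (alpha-catenin) and JUP (plakoglobin) did not pass. Their log2 fold changes were -0.01 ± 0.03 (adjusted p = 0.877) and 0.10 ± 0.06 (JUP, adjusted p = 0.226), though JUP passed without Caki2+Vector B (0.16, adjusted p = 0.0308). CTNND1 (p120-catenin) stood at 8.4 to 23.6 normalized counts while the readthrough gene TMX2-CTNND1, which spans it, stood at 0 in all 6 samples, so that its level is uncertain.

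Atypical and giant cadherins carry cadherin repeats and do not bind catenins as the classical ones do. Of 11 tested, 5 rose (45.5%) and 2 fell (18.2%), beside 16.2% and 13% of all tested genes. FAT3 had 65.3, 69.9 and 68.3 normalized counts in Caki2+Vector and 278.4, 274.6 and 273.6 with PBRM1, for a log2 fold change of 2.01 ± 0.10 (adjusted p = 1.1e-15), more than that of any of the 25 members. FAT1 rose by 0.26 ± 0.03 on the log2 scale (adjusted p = 7.25e-08). CELSR3, a cadherin of planar cell polarity, went the other way, from 178.9, 192.7 and 200.2 to 89.9, 85.3 and 94.0 normalized counts, a log2 fold change of -1.08 ± 0.11 (adjusted p = 2.66e-09).

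Of 10 tested genes for proteases that cut or mature cadherins and for subunits of such a protease complex, 5 rose (50%) and 0 fell. Of all tested genes 16.2% rose and 13% fell. The number of these 10 that fell was 0 also by edgeR, by DESeq2 and by limma at an unadjusted p under 0.05. FURIN, which removes the cadherin propeptide, had a log2 fold change of 0.56 ± 0.06 (adjusted p = 6.61e-08) and ADAM15 of 0.47 ± 0.06 (adjusted p = 7.76e-07). ADAM10, the main sheddase of N-cadherin, rose by 0.13 ± 0.04 (adjusted p = 0.00794), a call lost under total count scaling (0.08, adjusted p = 0.116).

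Of 9 tested transcription factors that repress or activate cadherin genes, 5 rose (55.6%) and 0 fell, beside 16.2% and 13% of all tested genes. Again 0 fell by edgeR, by DESeq2 and by limma at an unadjusted p under 0.05. ZEB2 had 37.9, 27.4 and 16.8 normalized counts in Caki2+Vector and 58.5, 62.2 and 63.8 in Caki2+PBRM1 (log2 fold change 1.21 ± 0.22, adjusted p = 1.06e-04). SNAI2 had 91.8, 92.6 and 107.9 and then 197.1, 219.5 and 183.8 (1.03 ± 0.11, adjusted p = 9.03e-09). Both are known as repressors of CDH1, which was near 0 in both groups.

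Of 14 tested regulators of the clustered arrays, 2 rose (14.3%) and 4 fell (28.6%), beside 16.2% and 13% of all tested genes. DNMT3B, a DNA methyltransferase known to methylate protocadherin promoters, fell, from 1581.9, 1745.0 and 1724.7 to 1354.0, 1353.7 and 1407.5 normalized counts (-0.29 ± 0.05, adjusted p = 1.08e-05). SETDB1, a histone methyltransferase, fell by 0.18 on the log2 scale (adjusted p = 0.0293), and CTCF rose by 0.16 ± 0.06 (adjusted p = 0.0327). Both calls were lost with DESeq2 (adjusted p = 0.0977 and 0.123), SETDB1 without Caki2+Vector B or any Caki2+PBRM1 sample (0.0601 to 0.152), and CTCF without Caki2+Vector C or Caki2+PBRM1 A or B (0.09 to 0.158) and under total count scaling (0.158). SMCHD1, a silencer of the arrays, did not pass (-0.04 ± 0.05, adjusted p = 0.623).

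Of 10 tested genes for the WAVE complex and the kinases that protocadherin tails bind, 1 rose (10%) and 2 fell (20%). These shares stand beside 16.2% and 13% of all tested genes. CYFIP1 rose by 0.20 ± 0.05 on the log2 scale (adjusted p = 0.0051, and 0.0639 without Caki2+PBRM1 A) and its paralog CYFIP2 fell, with -0.27 ± 0.06 (adjusted p = 0.00185). Of 6 tested calsyntenin partners 3 rose (50%) and 0 fell, beside the same shares of all tested genes. By edgeR, by DESeq2 and by limma at an unadjusted p under 0.05, 0 of them fell, while APBA1 lost its higher call with DESeq2. APBA2, which joins calsyntenins to the amyloid precursor protein, had a log2 fold change of 0.40 ± 0.09 (adjusted p = 0.00143), and APBA1 of 0.74 ± 0.28 at 9.6 to 24.0 normalized counts (adjusted p = 0.0491, and 0.0501 to 0.218 in 10 of 16 other fits).

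**Figure D5:**
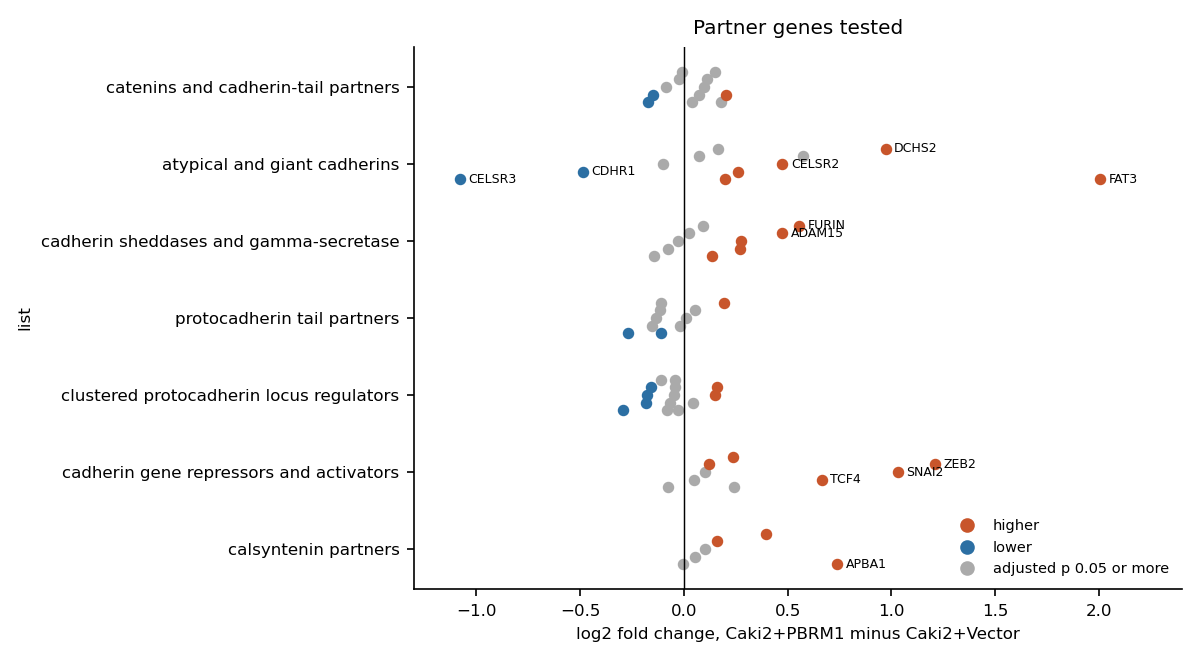
Log2 fold change (x axis, Caki2+PBRM1 minus Caki2+Vector) of each of the 72 tested partner genes, 1 point per gene, in 7 lists, coloured by whether the gene was called higher, lower or neither. Points of the same list are set apart vertically for legibility only. FAT3 at 2.01 and CELSR3 at -1.08 are the ends of the range, and the catenins and tail partners lie within 0.2 of 0 on either side except VCL.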

How the data were processed

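The authors trimmed and filtered poly(A) RNA-Seq reads, aligned them to hg19 with STAR and counted 25369 UCSC genes with htseq-count. The submitters' processing notes also name DESeq2, by which the values were normalized. The deposited signal is the normalized count of each gene. Within a sample 100% of values were whole multiples (within 0.01 read) of a step, so whole reads and size factors (0.8343 to 1.1915) were recovered. Genes with at least 10 in at least 3 samples (13303) were fitted as log2(normalized count + 1) in limma 3.58.1 (trend, robust, R 4.3.3) with Benjamini-Hochberg adjustment over all of them, so low genes' fold changes are understated. SE and 95% intervals are limma's. The p-values measure the spread between these samples.

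Alternatives were edgeR 4.0.16, DESeq2 1.42.0 and voom on recovered reads, the replicate letter as a block, other filters, pseudocounts and scalings, an adjusted p under 0.01, and each sample left out. Coordinates are from GENCODE v44 on GRCh37. Scripts were tested on simulated data. The members, lists and tests were chosen with earlier results of these data known. Named genes are a fixed set of kidney and epithelial cadherins, protocadherins and calsyntenins, the most abundant clustered genes, called members with a mean of at least 30 or a log2 fold change beyond 1, a fixed set of partners, and the 2 called partners per list that changed most. CDH10, CDH23, CDH26, PCDH10, PCDHA4, PCDHA5, PCDHB1, PCDHB4, PCDHB10, PCDHGA1, PCDHGA3 and PCDHGA8 were named after their values were seen. Protein sequences were not used here. The values of 1 partner gene of the fixed set are not reported here.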

Additional observations from a re-analysis of the deposited data

How the results depend on the processing

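Of the 13 members called, 7 passed in all 16 other fits: CDH6, CDH16, CLSTN1, CLSTN2, PCDH1, PCDH9 and PCDH20. The 12 members called higher became 7 with DESeq2 and 7 to 12 with 1 sample left out, and the 1 called lower became 0 with DESeq2 or at an adjusted p under 0.01, 2 with no filter or total count scaling, and 0 to 1 with 1 sample left out. For classical cadherins, 2 higher became 1 with DESeq2 or at an adjusted p under 0.01 and 1 to 2 with 1 sample left out, and 0 lower became 1 with no filter or total count scaling and 0 to 1 with 1 sample left out. For clustered protocadherins, 4 higher became 0 with DESeq2, 2 with total count scaling, 1 at an adjusted p under 0.01, and 0 to 4 with 1 sample left out, 0 of them without Caki2+PBRM1 B. Partner genes called lower, 10, became 18 with total count scaling, 6 at an adjusted p under 0.01, and 6 to 12 with 1 sample left out. The 1734 of all genes called lower became 1057 with DESeq2, 2777 with total count scaling (1624 higher, 36.9% of calls higher in place of 55.4%, with the median shifted by -0.055) and 1025 at an adjusted p under 0.01. The median log2 fold change of classical cadherins turned from 0.32 to -0.14 and that of members fell from 0.25 to 0.13 with no filter, where more genes are tested, and that of clustered protocadherins ranged from 0.17 to 0.31 with 1 sample left out. The sign turned for PCDH7 with total count scaling (-0.014), and with 1 sample left out for CDH26 (-0.064 to 0.423), PCDH7 (-0.013 to 0.068), PCDHA5 (-0.144 to 0.017), PCDHGB6 (-0.061 to 0.320), PCDHGB7 (-0.063 to 0.234), CTNNA1 (-0.022 to 0.004) and CTNND1 (-0.340 to 0.356). Except where an alternative tests other genes or fewer samples, the cause was not tested. In the fit with a replicate block, by letter, 12 members were higher and 1 lower, but samples with the same letter shared only a letter (correlations of deviations 0.006, -0.008 and 0.014). Depth limits the 74 members below the filter: of the 61 with any read, fitted with no filter, CDH10 and PCDHGA1 were called, and a missed call in the others does not show that they did not differ.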

Other observations

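Among members below the filter, CDH10, a type II cadherin known from brain, had 3, 6 and 6 reads in Caki2+Vector A, B and C and 0 in all 3 Caki2+PBRM1 samples. Set against a floor of 3 reads over the Caki2+PBRM1 group, its 15 reads in Caki2+Vector gave a 5.49-fold difference. The counting error of those 15 reads is not in this figure, so that it is no lower bound. Of the 61 members with a value above 0 below the filter, only CDH10 passed in the lower direction when the filter was dropped (limma adjusted p = 1.64e-05). The count tests, edgeR and DESeq2, were run only on genes above the filter. PCDHGA1, the first gene of the gamma array, passed in the higher direction in that fit (adjusted p = 0.00505), with 0.9, 0.0 and 0.0 normalized counts in Caki2+Vector and 4.3, 2.7 and 2.5 in Caki2+PBRM1. Both were named after their values were seen, and both rest on few reads.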
